A study of Mus musculus with 6 samples.

Results

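The annexins are a family of cytosolic proteins that bind acidic phospholipids in the presence of calcium. Each has a conserved core of annexin repeats, which carries the calcium sites, and an N-terminal part of its own, which differs between members and binds partners such as S100 proteins. They act in membrane repair, vesicle traffic and the link between membrane and actin, and Anxa1 and Anxa2 are abundant in leukocytes, epithelium of ducts and stroma. The 8 members described here (Anxa1, Anxa2, Anxa3, Anxa4, Anxa5, Anxa6, Anxa7 and Anxa11) were taken by gene name from the array's probes that are not controls. They have 11 probes of 39429, and 8 of the 19616 gene features tested in all. They were chosen with the difference between diets in these same arrays in view, so that difference is described for them without a test.

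RNA came from non-tumour regions of the livers of 6 male C57BL/6 mice, 3 per diet, and each mouse had 1 single-colour array. All 6 mice, 5 weeks old at the start, received the HrasG12V, shp53 and GFP4 transposon vector by hydrodynamic tail vein injection, which delivers DNA mainly to liver cells. It carries a mutated human oncogene, a hairpin RNA against p53 and a fluorescent marker, so no mouse was without the cancer model, and the promoter that drives it is not given in the sources used here. The control group ate a control diet and the other group a moderately restricted carbohydrate diet, below called the restricted diet; the series text adds plant compounds that mimic calorie restriction, which the sample labels do not name. The sample labels give 1 week of feeding before injection and 5 weeks of diet, and the series text gives 2 and 4 weeks.

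Values are log2 signals relative to each array's 75th percentile of signal, which ranged from 302 to 612, and between 23527 and 25816 probes per array exceeded background clearly. Slide 1 held the 3 control mice and restricted mouse 1, and slide 2 held restricted mice 2 and 3, so diet can be compared within slide 1 only. The 7 hepatocyte markers tested, Alb among them, were well above background on all 6 arrays. Of all features 27.5% were called by limma at an adjusted p under 0.05, and the median feature was 0.12 higher on the restricted diet.

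The upstream sequences of 4 members are shown first. Whether their letters bear on the difference between diets was not tested. They are the 250 bases before the RefSeq transcription start (GRCm38.p6), 5′ to 3′ on the gene's strand; RefSeq promoters were matched for 6 of the 8 members, not for Anxa3 and Anxa6. Capitals mark the motifs, searched on both strands. The TATA box was searched as TATAAA and the GC box as GGGCGG. The AP-1 site was searched as TGANTCA and the CCAAT box by those letters, and the kappaB site is given by name alone. No matches overlapped each other. The regions are chr19:20390672-20390921 (minus strand) for Anxa1, chr9:69453433-69453682 (plus) for Anxa2, chr3:36475888-36476137 (minus) for Anxa5 and chr14:25841905-25842154 (plus) for Anxa11.
Anxa1: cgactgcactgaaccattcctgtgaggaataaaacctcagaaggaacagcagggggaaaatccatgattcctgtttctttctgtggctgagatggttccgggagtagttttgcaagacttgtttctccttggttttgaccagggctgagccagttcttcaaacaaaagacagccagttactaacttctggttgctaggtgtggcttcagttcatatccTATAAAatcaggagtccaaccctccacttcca
Anxa2: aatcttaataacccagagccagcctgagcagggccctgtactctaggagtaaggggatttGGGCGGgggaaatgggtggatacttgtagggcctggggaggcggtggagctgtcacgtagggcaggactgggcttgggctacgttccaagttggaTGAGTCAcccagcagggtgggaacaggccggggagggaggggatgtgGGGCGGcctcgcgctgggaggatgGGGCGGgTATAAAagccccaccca
Anxa5: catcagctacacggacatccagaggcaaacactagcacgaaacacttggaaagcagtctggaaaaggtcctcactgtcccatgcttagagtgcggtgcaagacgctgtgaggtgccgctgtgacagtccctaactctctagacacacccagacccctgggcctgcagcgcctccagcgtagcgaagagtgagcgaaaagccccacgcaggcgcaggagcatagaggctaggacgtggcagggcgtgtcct
Anxa11: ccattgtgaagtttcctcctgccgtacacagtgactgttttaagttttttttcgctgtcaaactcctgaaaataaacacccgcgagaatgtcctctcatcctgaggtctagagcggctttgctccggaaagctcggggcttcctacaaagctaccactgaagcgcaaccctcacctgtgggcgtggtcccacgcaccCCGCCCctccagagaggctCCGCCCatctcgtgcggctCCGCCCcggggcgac

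The TATA box was found upstream of Anxa1, at bases -32 to -27, and of Anxa2, at bases -17 to -12, and in none of the windows of Anxa4, Anxa5, Anxa7 and Anxa11. Of all 32851 mouse promoter windows of this length 12.4% hold it. Outside the members, the window of Anxa10, a gene not above background on any array, held it at bases -32 to -27. That window also held AP-1 letters at bases -180 to -174 and -16 to -10. The Anxa2 window also held 1 AP-1 match, at bases -95 to -89, against 6.75% of all windows, and 3 GC boxes. GC boxes, held by 32.7% of all windows, were also found upstream of Anxa11 (3 matches) and Anxa7, whereas the Anxa5 window held none of the 5 motifs. One of the Anxa4 windows held the kappaB letters, at bases -55 to -46, which 0.14% of all windows hold, and CCAAT (33.8% of all windows) was in none of the members' windows. The 4 windows shown differ in CpG content, with 2 CpGs for Anxa1, 9 for Anxa2, 13 for Anxa5 and 17 for Anxa11, where the median promoter has 6. One window each of Anxa4 and Anxa7, members with small differences, also held 2. A match is a run of letters and says nothing of binding, and no factor was measured here.

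The 8 members divided into a group far lower on the restricted diet and a group with small differences in either direction. Anxa1, Anxa2 and Anxa3 were 4.94-fold, 7.30-fold and 5.46-fold lower in restricted mice (n = 3 per diet), while the other 5 members lay between -0.31 and 0.58 on the log2 scale. In 6 of the 8 members the values of the diets did not overlap, against 44.8% of all features. Of these, 4 were lower on the restricted diet (18.8% of all features) and 2 higher (26.1%); the called shares at an adjusted p under 0.05 were 12.8% lower and 14.6% higher. Since the members were chosen on this contrast, nothing is read from these counts. All 11 probes were well above background on all 6 arrays and none was saturated, so all passed the filter on dim probes. The median difference of the 8 members was -0.26, against 0.12 for all features.

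**Figure D1:**
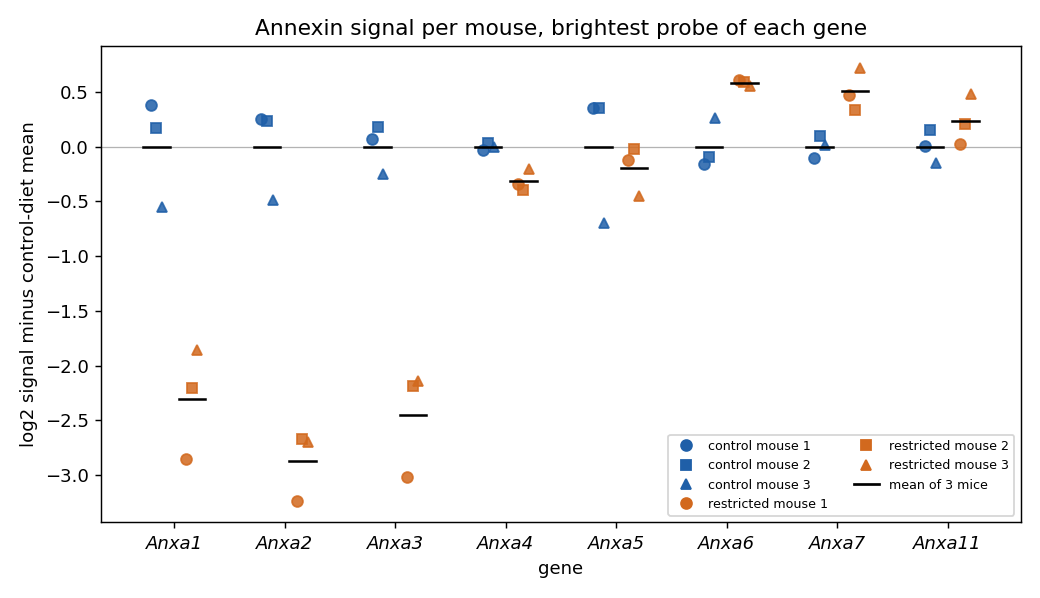
Signal of the brightest probe of each annexin in every mouse, as log2 signal minus the mean of the control diet (y axis), by gene (x axis); blue symbols are control mice, orange symbols restricted mice, shapes the mouse number and black lines the mean of 3 mice. Anxa1, Anxa2 and Anxa3 have mean differences of -2.87 to -2.30, and the diets overlap for Anxa5 and Anxa11.

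Anxa2 has the largest difference of the members. It forms a heterotetramer with S100a10 that links membrane to actin, and it binds plasminogen and its activator at the cell surface. Its probe (NM_007585, mm9 chromosome 9, 69339532 to 69339591, base 1313 of the transcript) measured 4.76, 4.74 and 4.02 in control mice and 1.27, 1.84 and 1.80 in restricted mice. Every restricted mouse was below every control mouse, by more than the spread within either diet. Means were 4.51 ± 0.42 and 1.64 ± 0.32 (SD, n = 3 each), a difference of -2.87 ± 0.27 (SE), and restricted mouse 1, the one on slide 1, was 3.23 below the control mean. In a bulk tissue sample, fewer cells of a type that makes a transcript and less of it per cell cannot be told apart, which holds for all values here.

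Anxa1, a target of glucocorticoids that restrains inflammation through formyl peptide receptors, was lower by both of its probes. The brighter probe (NM_010730, mm9 chromosome 19, 20447938 to 20447997, base 1321) measured 2.85, 2.64 and 1.92 in control mice and -0.38, 0.27 and 0.62 in restricted mice. Its means were 2.47 ± 0.49 and 0.17 ± 0.51, a difference of -2.30 ± 0.34. The other probe (20449722 to 20449781, base 991) measured 0.79, 0.49 and -0.56 in control mice and -2.56, -1.83 and -1.60 in restricted mice. The diets were apart by both probes, the second of which gave a difference of -2.24 ± 0.40, and control mouse 3 was the lowest control mouse in each. On slide 1 the differences were -2.85 and -2.80.

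Anxa3, an annexin of neutrophils and of some duct and tumour cells, was the third member far lower on the restricted diet. Its probe (NM_013470, mm9 chromosome 5, 97253925 to 97253984, base 639) measured -0.86, -0.75 and -1.19 in control mice and -3.95, -3.13 and -3.08 in restricted mice. The diets were separated, and restricted mouse 1 was the lowest of all 6 mice. Means were -0.94 ± 0.23 and -3.39 ± 0.49, a difference of -2.45 ± 0.28, or -3.02 on slide 1. With normexp background correction, whose offset of 50 shrinks differences of dim probes, it was -1.32.

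The sequences of the dimmer Anxa1 probe (base 991) and of the Anxa3 probe (base 639), which lie in coding sequence, are shown. The 4.94-fold value of Anxa1 came from its brighter probe (base 1321), whose sequence is not shown.
Anxa1 probe: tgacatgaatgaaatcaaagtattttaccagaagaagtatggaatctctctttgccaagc
Anxa3 probe: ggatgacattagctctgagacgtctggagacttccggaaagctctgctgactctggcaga
The longest run of bases that any pair of member probes of different genes had in common, on either strand, was 8 of 60 (Anxa4 and Anxa7, over 52 pairs).

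Anxa4, a membrane-binding annexin of epithelia of ducts and glands, had a small difference with a very narrow spread. Its probe (NM_013471, mm9 chromosome 6, 86686883 to 86686942) measured 2.41, 2.48 and 2.44 in control mice and 2.10, 2.05 and 2.24 in restricted mice. The groups did not overlap, and the control SD of 0.03 was at or above that of 1.14% of features. The difference was -0.31 ± 0.16, that is 1.24-fold lower, and it ranged from -0.50 with quantile normalization to -0.22 with scaling to the array median.

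Anxa5, which binds phosphatidylserine exposed on dying cells and is used as a probe for it, differed little. Its probe (NM_009673, mm9 chromosome 3, 36348065 to 36348124) measured 3.73, 3.73 and 2.68 in control mice and 3.26, 3.36 and 2.93 in restricted mice. The diets overlapped, since control mouse 3 was the lowest and control mice 1 and 2 the highest of all. The difference was -0.20 ± 0.32, and without control mouse 3 it was -0.55.

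Anxa6 and Anxa7 were higher in restricted mice. Anxa6, a large annexin with a doubled core that takes part in endosome and cholesterol traffic, measured 3.45, 3.52 and 3.87 in control mice and 4.23, 4.21 and 4.17 in restricted mice (NM_013472, mm9 chromosome 11, 54792616 to 54792675). The restricted mice were nearly equal, with an SD of 0.03, and all lay above the control mice; the difference was 0.58 ± 0.18. Anxa7 (synexin), a promoter of membrane fusion, measured 1.82, 2.02 and 1.93 in control mice and 2.39, 2.26 and 2.64 in restricted mice by its brighter probe (NM_009674, mm9 chromosome 14, 21275441 to 21275500). Its difference was 0.51 ± 0.18, and the other probe (21275240 to 21275299) gave 0.60 ± 0.24, again with no overlap of the diets. On slide 1 the differences were 0.61 for Anxa6 and 0.47 for the brighter probe of Anxa7.

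Anxa11, a long-tailed annexin that ties RNA granules to lysosomes, overlapped between diets by both probes. The brighter probe (NM_013469, mm9 chromosome 14, 26706231 to 26706290) measured 1.98, 2.13 and 1.83 in control mice and 2.00, 2.18 and 2.46 in restricted mice, a difference of 0.23 ± 0.19. The other probe (26694168 to 26694227) measured -4.36, -4.33 and -3.65 against -4.14, -4.12 and -3.65, a difference of 0.15 ± 0.26. On slide 1 these were 0.02 and -0.02.

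**Figure D2:**
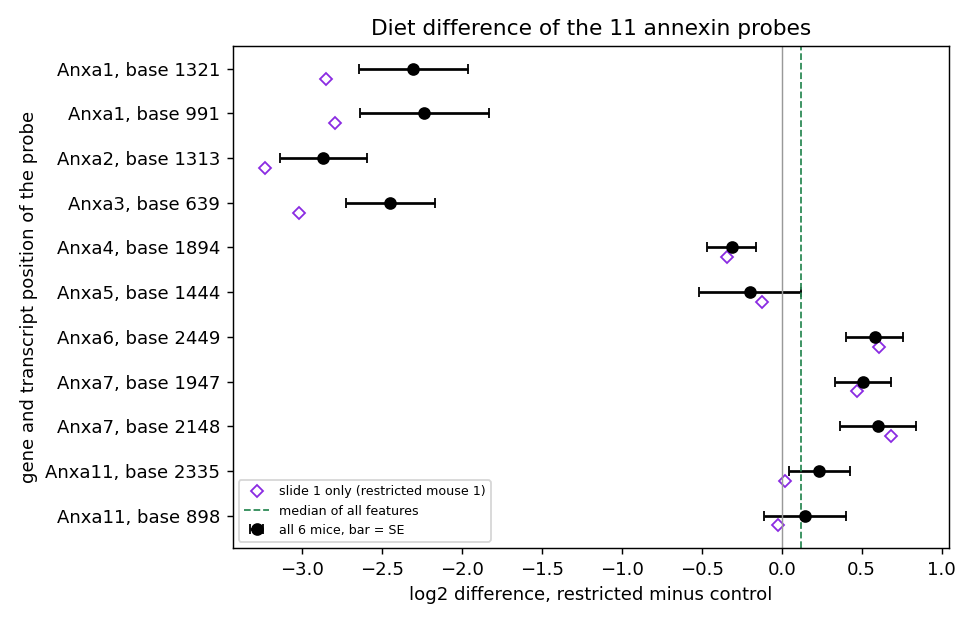
Log2 difference, restricted minus control (x axis), of each of the 11 annexin probes, named by gene and transcript position (y axis); points are the fit to all 6 mice with its SE, open diamonds restricted mouse 1 against the 3 control mice of the same slide, and the dashed line the median of all features (0.12). The probes of Anxa1, Anxa2 and Anxa3 lie between -2.87 and -2.24 and the other 7 probes between -0.31 and 0.60.

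Spread between mice of one diet was not used to choose the members. Over the 8 members the median SD was 0.23 on each diet, against 0.28 on the control and 0.25 on the restricted diet for all features. Anxa1, Anxa2 and Anxa3 had the same order at the low end: control mouse 3 and restricted mouse 1 were the lowest of their diets for all 3 genes. Control mouse 3 deviated from its diet mean by -0.55 for Anxa1, -0.49 for Anxa2 and -0.25 for Anxa3, and restricted mouse 1 by -0.55, -0.37 and -0.57. Anxa5 shared the low value of control mouse 3 (-0.70) but not that of restricted mouse 1 (0.08), and Anxa6 had its highest control value in mouse 3 (0.26). Control mouse 3 was the lowest control mouse for 5 of the 8 members, against 32.5% of all features. Restricted mouse 3 was the highest restricted mouse for 5 of the 8, against 41.7% of all features. These deviations are a description over 8 genes of the same 6 arrays.

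**Figure D3:**
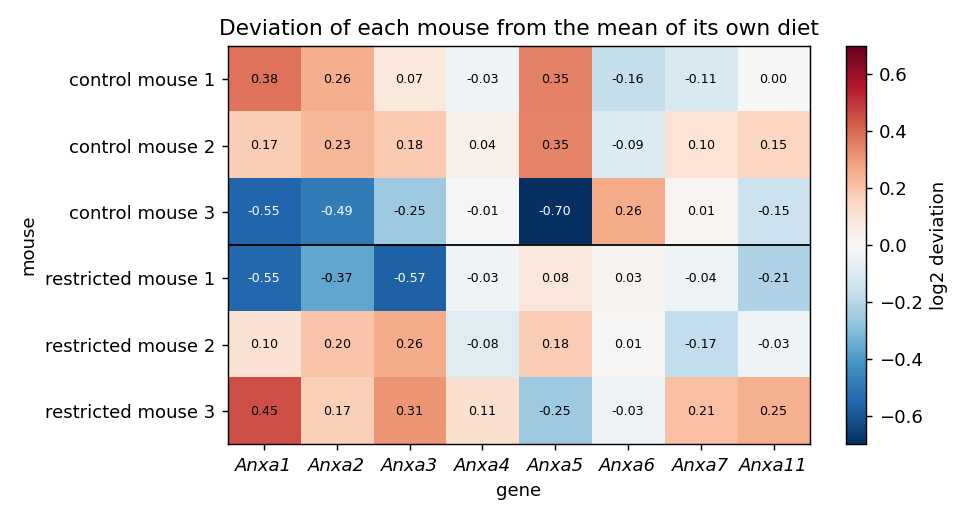
Log2 deviation of each mouse (rows) from the mean of its own diet for the brightest probe of each annexin (columns), with red above and blue below the mean. Control mouse 3 and restricted mouse 1 are the lowest of their diets for Anxa1, Anxa2 and Anxa3, and control mouse 3 is lowest for Anxa5 at -0.70.

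Likeness of other genes' profiles to those of the members was measured as the root mean square difference over the 6 mice, each profile centred on its own mean, among 12634 features with a RefSeq symbol that is no predicted-gene or clone name, annexins left out, that were well above background on all arrays. For Anxa1, Anxa2 and Anxa3 this measure is set largely by the difference between diets, on which the members were chosen. It thus returns genes with a like difference, here -3.07 to -2.34, and no cell type is read from them. Closest to Anxa2 were Arhgdib, a gene of blood cells (0.12, log2 units), and Slfn2, a regulator of T cell and monocyte quiescence (0.14). Arhgdib measured 2.97, 3.12 and 2.42 in control mice and -0.54, 0.30 and 0.30 in restricted mice. Closest to Anxa3 was Vim (0.10), the vimentin of mesenchymal cells and leukocytes, and P2ry14, a receptor for UDP-glucose, was next for Anxa3 (0.10) and first for Anxa1 (0.12), followed there by Frzb, a secreted Wnt antagonist (0.13). For the members with small differences the closest genes were Rps21 and Trip11 (Anxa4), Tars and Dhx38 (Anxa5), Tubgcp4 and Angel1 (Anxa6), Myo18b and Hint1 (Anxa7), and Diaph2 and Micu2 (Anxa11), at 0.03 to 0.05.

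Markers of several cell types were, like Anxa1, Anxa2 and Anxa3, lower on the restricted diet. Of all features limma called 12.8% lower and 14.6% higher at an adjusted p under 0.05. All 10 macrophage and Kupffer cell markers fell by their brightest probes, led by Cd14 (-3.70) and Marco (-3.55), and their summed signal, relative to the 75th percentile on a linear scale, was 208 to 278 in control mice and 36.2 to 51.4 in restricted mice. For Csf1r, the receptor of a macrophage growth factor, another probe was higher in restricted mice (0.66 ± 0.21) and a further one lower (-2.11 ± 0.26). Of 8 neutrophil markers 5 fell and 1 rose (sums of 151 to 181 and 91.8 to 135). The largest part of these sums is Csf3r, which was not called (0.03 ± 0.24), so they show little of the 5 that fell. Among the 5, S100a8 and S100a9 differed from the control mean by -1.31 and -1.28 in restricted mouse 1 (slide 1). In the mice of slide 2 they differed by -5.31 and -5.19. Restricted mouse 1 was the highest of its diet for both and for Ngp, in between for Camp and the lowest for Mpo. The 5 markers thus shared no order of the restricted mice. For Anxa1, Anxa2 and Anxa3 restricted mouse 1 was the lowest of its diet. Mpo (at least 21.6-fold lower) and Ngp (at least 17.0-fold lower), also among the 5, cleared background on 4 of 6 arrays. They passed the filter only through the control diet, where they are high. Of 8 stellate cell and fibroblast markers 5 fell (109 to 144 and 45.9 to 74.5). Of 7 bile duct markers tested 3 fell (4.73 to 5.65 and 1.22 to 2.17), among them Spp1 (-2.33). The others, Krt7 (at least 2.13-fold lower) and Epcam (at least 1.81-fold lower), cleared background on 3 of 6 arrays. Those arrays were of the control diet, so both markers passed the filter only through the diet where they are high. Of 5 lymphocyte markers tested 2 fell, Cd2 (-2.37) and Cd3g (-1.46, from a probe that cleared background on 5 of 6 arrays). The sums were 4.35 to 6.31 and 5.49 to 7.20, and most of them is Cd3e and Nkg7, which were not called. Another probe of Nkg7 was lower in restricted mice (-1.41 ± 0.34). Cd8a and Cd79a did not pass the filter on dim probes. Of 8 endothelial markers 4 rose and none fell (22.1 to 33.9 and 38.4 to 51.7; at an unadjusted p under 0.05 in limma 5 were higher and 1 lower). The part of these cells in the annexin differences was not tested. None of the 7 hepatocyte markers was called by limma by its brightest probe, and 3 of those probes were saturated on all arrays. Sums over the 7 were 645 to 863 and 769 to 990. At an unadjusted p under 0.05 in limma Apoa1 was lower and Cps1 higher. For Cyp2e1, whose brightest probe was saturated, another probe was higher in restricted mice (0.97 ± 0.23).

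The annexins outside the 8 members were near background or not called. Anxa10, an annexin of stomach and liver, was not well above background on any array. Anxa8, Anxa9 and Anxa13, of epithelia, did not pass limma's test: 0 of 3 were called, with 0 lower and 1 higher at an unadjusted p under 0.05. Anxa13 measured -3.99, -3.72 and -4.05 in control mice and -3.76, -2.62 and -3.05 in restricted mice. Its difference was 0.78 ± 0.30 (limma, adjusted p = 0.0995), or 1.09 (adjusted p = 0.0223) without restricted mouse 1, the mouse closest to the control mice; diet and slide then cannot be told apart. With the slide as a block it was 0.16 (adjusted p = 0.768). The Anxa8 probes disagreed, at 0.60 ± 0.27 (adjusted p = 0.147) for the brightest and -0.68 ± 0.45 for the one spotted 10 times, and Anxa9 differed by -0.52 ± 0.27 (adjusted p = 0.203).

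The S100 partners S100a4, S100a6 and S100a11 fell, and S100a10 did not pass the test. Of 12 binding partners tested 6 fell and none rose (1 more, Cav1, was not above background), where 12.8% of all features were lower at an adjusted p under 0.05. S100a11, which binds the N-terminal part of Anxa1, measured 1.83, 1.82 and 1.60 in control mice and -1.56, -0.95 and -1.51 in restricted mice. It fell by 3.09 ± 0.22 (SE; limma, adjusted p = 0.000338), an 8.52-fold decrease. S100a6, a partner of Anxa2 and Anxa11, measured 4.39, 4.47 and 4.10 against 0.26, 0.83 and 1.14 and fell by 3.58 ± 0.26 (adjusted p = 0.000355). S100a4, a calcium-binding protein of motile cells, measured 4.01, 4.38 and 4.15 against -2.28, -0.37 and -0.30 and fell by 5.17 ± 0.52 (adjusted p = 0.00081), or by 4.12 by its other probe. Each of these 3 genes was lower in all restricted mice than in any control mouse.

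S100a10 (p11), the light chain of the Anxa2 tetramer, measured 4.10, 4.56 and 3.70 in control mice and 4.04, 3.91 and 3.72 in restricted mice. The diets overlapped, and the difference was -0.23 ± 0.25 (limma, adjusted p = 0.523), with a 95% interval of -0.82 to 0.35. Whether it differs from Anxa2 in its response was not tested. Plg, the plasminogen that the tetramer binds, differed by 0.00 ± 0.17 (adjusted p = 0.993), and Plat, tissue plasminogen activator, was at least 2.18-fold lower (adjusted p = 0.0394 as fitted). Plat was not well above background in any restricted mouse, and its call ended in 9 of 17 alternatives. Among them were leaving out control mouse 1 (limma, adjusted p = 0.117), control mouse 2 (0.125), restricted mouse 1 (0.0983) or restricted mouse 2 (0.105). Others were quantile normalization (0.0502), no background filter (0.0731) and normexp correction of background (0.55).

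Other partners gave mixed results. Pla2g4a, the cytosolic phospholipase A2 that Anxa1 inhibits, measured -1.65, -1.47 and -0.84 in control mice and -3.64, -2.45 and -3.28 in restricted mice and fell by 1.80 ± 0.35 (limma, adjusted p = 0.0106), or by 0.92 with normexp correction. Sri (sorcin), a calcium-binding partner of Anxa7, fell by 0.73 ± 0.20 (adjusted p = 0.0321), a call that ended when leaving out any mouse except control mouse 3 (adjusted p of 0.0692 to 0.106) and with the slide as a block (0.182). Pdcd6 (ALG-2), which binds Anxa7 and Anxa11, was at 0.33 ± 0.36, Rasa1, a Ras GTPase-activating protein that Anxa6 recruits, at 0.03 ± 0.18, and Prkca, a kinase that Anxa6 binds, at 0.29 ± 0.21, none of them called. For Ahnak, a giant scaffold bound by Anxa2 and S100a10, the brightest probe differed by -0.14 ± 0.52 (adjusted p = 0.868), while its 3 other probes gave -2.23, 0.22 and -2.41.

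Of the receptors of Anxa1, Fpr1 and Fpr2 were lower in restricted mice in the main analysis, and Fpr3 was not called. Fpr2, the formyl peptide receptor through which Anxa1 acts on leukocytes, measured -1.37, -2.39 and -1.77 in control mice and -3.15, -4.25 and -4.53 in restricted mice and fell by 2.13 ± 0.42 (limma, adjusted p = 0.0101), or by 0.83 with normexp correction. Fpr1, a chemotactic receptor of neutrophils and monocytes, fell by 1.21 ± 0.29 (adjusted p = 0.0207, or 0.0628 without control mouse 1), with all restricted mice below all control mice. Fpr3 differed by -0.23 ± 0.19 (adjusted p = 0.409), from a probe that cleared background in 4 of 6 mice. With the slide as a block Fpr1 (-1.13, adjusted p = 0.141) and Fpr2 (-1.31, adjusted p = 0.0919) were not called.

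Of 8 membrane repair genes tested 3 fell and none rose, while Myof and Trim72 were not above background. Among all features 12.8% were called lower and 14.6% higher. Dysf (dysferlin), which acts with annexins at membrane wounds, measured 0.37, 0.54 and 0.45 in control mice and -0.57, -0.97 and -0.86 in restricted mice and fell by 1.25 ± 0.18 (limma, adjusted p = 0.00298). Ehd2, a membrane-shaping ATPase of caveolae, fell by 1.67 ± 0.22 by its brightest probe (adjusted p = 0.00215). Its other probe, well above background in all 6 mice, gave -0.09 ± 0.31, so the probes of Ehd2 disagree. Chmp4b, a subunit of the ESCRT-III complex, fell by 0.76 ± 0.16 (adjusted p = 0.0142), or with adjusted p = 0.0521 without control mouse 1 and 0.0554 without restricted mouse 2. Its 2 other probes gave -0.41 ± 0.47 and -0.43 ± 0.42. With the slide as a block Chmp4b was not called (adjusted p = 0.132), nor was Dysf on slide 1 alone (0.0843). The calpains Capn1 and Capn2, their small subunit Capns1, the ESCRT adaptor Pdcd6ip and the ATPase Vps4b lay between -0.28 and 0.30 and were not called. Over the 4 lists of other annexins, partners, receptors and repair genes, 11 of 26 genes tested fell (42.3%, against 12.8% of all features) and none rose in limma. At an unadjusted p under 0.05 in limma 1 was higher, and the median difference was -0.26. The lists were chosen with earlier results of these data known, so nothing is read from these counts.

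**Figure D4:**
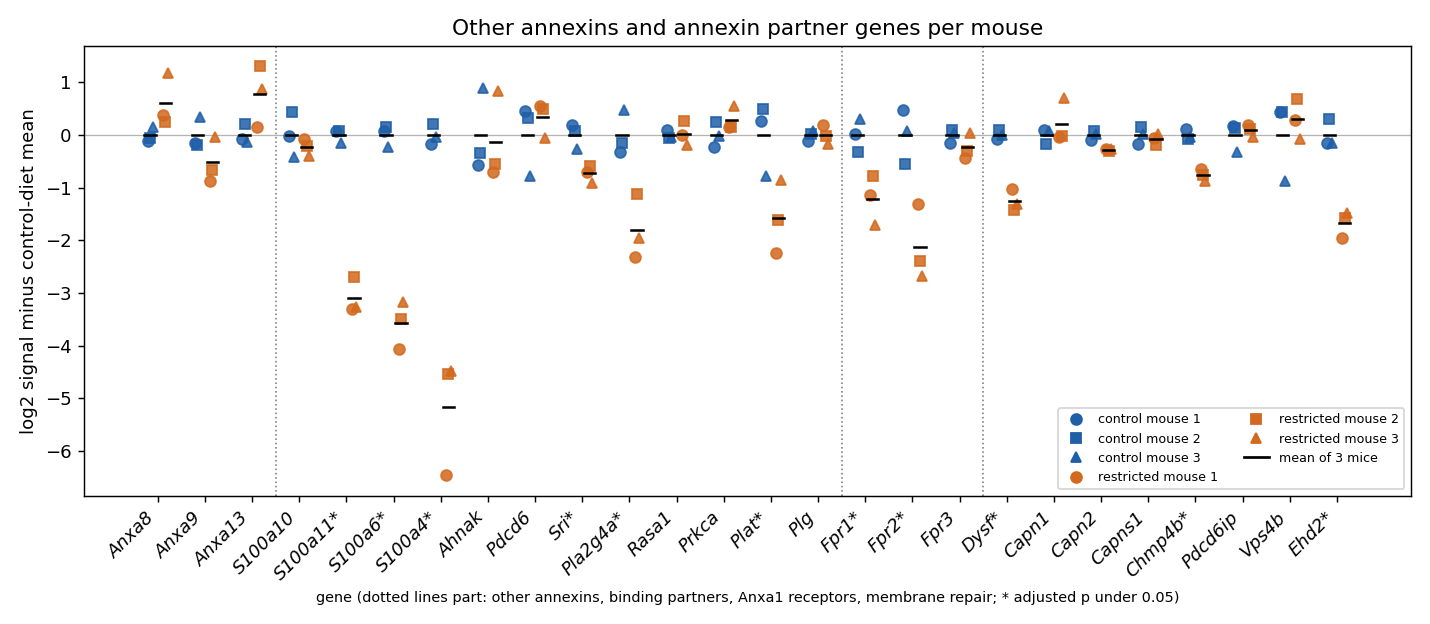
Signal per mouse of the 26 other annexins and annexin partner genes tested, as log2 signal minus the control-diet mean (y axis), by gene (x axis); blue symbols are control and orange symbols restricted mice, black lines means of 3 mice, and an asterisk marks an adjusted p under 0.05 in limma. S100a11, S100a6 and S100a4 have mean differences of -5.17 to -3.09, and S100a10 overlaps between diets.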

How the data were processed

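The intensity values are the processed signals of 6 deposited single-colour scanner files, produced, per the file headers, by Agilent Feature Extraction 10.7.3.1, which removed spatial and multiplicative trends; version 9.3.2.1 is the one in the submitters' processing notes. Probe means of these signals match the deposited value table within 0.1% for 99.67% to 99.77% of probes, which shows that table to be linear and uncentred. Outlier spots (127 to 251 of 43020 per array) were dropped, signals were put on the log2 scale, repeat spots averaged per probe and each array scaled by subtracting its 75th percentile. Probes had to clear background on every measured array of either diet (24234 of 39429 did), and the brightest probe per gene name gave 19616 features. Names came from the files, updated through RefSeq accessions for 26055 probes; probe positions are on mm9 per the file headers.

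Diets were compared with limma 3.58.1 (R 4.3.3) and Benjamini-Hochberg adjustment over all features, called at adjusted p under 0.05. The fit was tested on simulated data. For a probe too dim in a group, the bound compares the brighter mean with, per array, the higher of the probe's signal and the lowest signal well above background.

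The members and lists were chosen with earlier results of these data known. All members and every called partner are named, with the 2 closest profiles per member and up to 2 leading markers per list. Further markers are named where a limit is given. The number of arrays limits precision. Deviations of mice with the same number correlated across diets at 0.38, 0.00 and 0.48, and those of mice with different numbers at -0.50 to 0.12. The sample titles number the mice within each diet and name no pairs, so the main fit has no pairing. Whether the numbers mark a shared batch was not tested. Alternatives were other scalings, background correction, filters, the deposited table, every probe, other moderation, array weights, blocks for mouse number and slide, slide 1 alone and leaving out each mouse. Some markers are not reported here.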

Additional observations from a re-analysis of the deposited data

How the results depend on the processing

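All 8 members kept the sign of their difference under all 18 alternatives, but not all of these could change it. The filters, every probe, other moderation and the block for mouse number left each member's difference at its main value. The deposited table holds nearly the same signals, and the slide block and slide 1 alone gave identical differences. The ranges were -2.85 to -2.03 for Anxa1, -3.23 to -2.68 for Anxa2, -3.02 to -1.32 for Anxa3, -0.50 to -0.22 for Anxa4, -0.55 to -0.02 for Anxa5, 0.31 to 0.71 for Anxa6, 0.35 to 0.60 for Anxa7 and 0.02 to 0.34 for Anxa11. The median of the members ran from -0.46 with quantile normalization to -0.16, and leaving out 1 mouse gave -0.43 to -0.16. The number of features called, 5386, was 8368 with array weights, 3013 with the slide as a block (1892 lower, 1121 higher, against 2518 and 2868 in the main analysis) and 2254 on slide 1 alone (1598 lower, 656 higher), where the spread of the 3 control mice stands in for that of the 1 restricted mouse, and 3344 to 5818 when leaving out 1 mouse (3344 without control mouse 2, 3394 without restricted mouse 2). Of the 26 partner genes, 11 were called in the main analysis, 7 with the slide as a block, 5 on slide 1 alone and 7 to 11 when leaving out 1 mouse (7 without control mouse 1); fewer samples carry the comparison within slide 1. The replicate block, for a mouse number not known to pair mice, gave 6623 features and 11 partners called, 10 lower and 1 higher. In that limma fit Plat was lost (adjusted p = 0.063) and Anxa13 gained (adjusted p = 0.05). S100a11, S100a6, S100a4, Pla2g4a and the brightest probe of Ehd2 passed in all 18 alternatives; the other Ehd2 probe was at -0.09 ± 0.31. Signal near background limits Plat, Fpr3, Anxa8 and Anxa10.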
